A study of Mus musculus with 8 samples.

Results

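The Ena/VASP genes of the mouse are Enah, Vasp and Evl, and all 3 were measured among the 19938 genes compared on 8 Affymetrix arrays. The genes were taken by symbol as the members of the family, and the probe set of each was chosen by the highest mean level over all 8 arrays. Each of the 3 genes had only 1 probe set with a single symbol, so that mean decided nothing, and it is not used as a result. RNA came from primary cultures of aortic smooth muscle cells (C57Bl6 strain, passage 3 to 4), all grown over 24 h in DMEM containing 10% FCS. The 4 treated cultures also received 100 nM jasplakinolide, a cell-permeable sponge compound that binds and stabilises actin filaments, and the 4 control cultures did not. The labels state neither a vehicle in the control cultures nor whether the cultures came from separate animals, so a p-value here speaks only of the spread among these cultures, part or all of which may be technical.

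Ena/VASP proteins sit at the growing, barbed ends of actin filaments, where they speed up elongation and keep capping protein away. Their EVH1 domain docks on short proline-rich motifs of adhesion and leading-edge proteins, their central proline-rich stretch recruits profilin bound to actin monomers, and their EVH2 domain binds filaments and joins the proteins into tetramers. Enah encodes Mena, the mammalian counterpart of fruit fly Enabled; Vasp encodes the vasodilator-stimulated phosphoprotein, whose phosphorylation by cyclic nucleotide-dependent kinases is a long-used readout in platelets and vascular cells; Evl encodes the Ena/VASP-like protein. In smooth muscle these proteins are found at focal adhesions and dense bodies, the places where actin filaments are anchored.

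Enah lies on chromosome 1 (chr1:181896384-182027556), Vasp on chromosome 7 (chr7:19256929-19271854) and Evl on chromosome 12 (chr12:108554681-108688516) of GRCm38.p6, as RefSeq places them. The 250 bases before each start listed by RefSeq are shown so that the sequence before each start can be read beside the response of its gene: 1 window each for Enah (chr1:182019981-182020230, minus strand) and Vasp (chr7:19271855-19272104, minus strand), and 2 for Evl (chr12:108554470-108554719 and chr12:108605516-108605765, plus strand). Each is written 5′ to 3′ along the gene, and capitals mark GGGCGG, the core of the GC box bound by Sp1-type factors, and GGAATG, the core of the motif bound by TEAD factors, on either strand.
Enah: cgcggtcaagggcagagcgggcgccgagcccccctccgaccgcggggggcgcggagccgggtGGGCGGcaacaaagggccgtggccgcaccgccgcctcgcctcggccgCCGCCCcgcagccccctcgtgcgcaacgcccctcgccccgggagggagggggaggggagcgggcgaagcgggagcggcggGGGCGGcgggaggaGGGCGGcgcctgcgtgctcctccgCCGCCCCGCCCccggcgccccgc
Vasp: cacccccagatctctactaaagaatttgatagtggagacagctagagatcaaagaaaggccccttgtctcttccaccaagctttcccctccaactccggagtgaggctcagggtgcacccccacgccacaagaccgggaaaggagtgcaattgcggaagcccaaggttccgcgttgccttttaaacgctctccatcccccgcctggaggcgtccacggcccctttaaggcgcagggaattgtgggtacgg
Evl upstream start: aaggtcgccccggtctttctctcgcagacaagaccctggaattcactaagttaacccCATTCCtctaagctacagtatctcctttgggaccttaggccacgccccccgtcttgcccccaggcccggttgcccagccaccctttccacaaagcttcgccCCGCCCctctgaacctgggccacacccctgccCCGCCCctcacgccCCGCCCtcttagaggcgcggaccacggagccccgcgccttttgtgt
Evl downstream start: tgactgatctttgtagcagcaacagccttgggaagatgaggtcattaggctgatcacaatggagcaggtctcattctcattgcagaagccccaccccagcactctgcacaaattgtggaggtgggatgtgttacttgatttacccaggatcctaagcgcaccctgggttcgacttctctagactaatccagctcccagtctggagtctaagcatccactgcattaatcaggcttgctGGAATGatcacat
The Enah window was the richest of the 4 in G and C, at 84.8%, against 57.2% for Vasp, 64% and 49.2% for the upstream and downstream Evl starts, and a median of 52.4% over all 32851 promoter windows. It held GGGCGG at 6 places, and 2 of these, between 23 and 13 bases before the start, share a base. The upstream Evl window held it at 3 places, and the Vasp and downstream Evl windows held none; 32.7% of all windows had at least 1. GGAATG occurred once in each Evl window and in neither of the others, against 12.6% of all windows. No window contained a CArG box, the binding motif of serum response factor, searched without mismatches on both strands and present in 1.47% of all windows, nor TATAAA, present in 12.4%. These are matches of letters in a short window and were not tested as binding sites. Of these starts, only that of Vasp is the 5′ end of the gene as RefSeq spans it. The Enah start lies 7576 bases inside that span and the Evl starts 39 and 51085 bases inside, so other transcripts of both genes begin further upstream, outside the windows or within them. The arrays do not show which start was used.

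Enah was higher in the cultures given jasplakinolide. Its RMA expression level was 9.56, 9.53, 9.83 and 9.83 log2 on jasplakinolide arrays 1 to 4, against 9.10, 8.97, 9.29 and 9.14 log2 on control arrays 1 to 4. Every jasplakinolide array lay above every control array, and the gap between the groups, 0.24 log2, was smaller than the spread inside either of them (0.30 log2 among jasplakinolide arrays and 0.32 among control arrays). The means were 9.69 ± 0.17 log2 with jasplakinolide and 9.13 ± 0.13 in control (SD, n = 4 each). In limma, fitted over all genes, Enah rose by 0.56 ± 0.09 on the log2 scale (SE; 95% interval 0.35 to 0.77), or 1.48-fold, with a Benjamini-Hochberg adjusted p of 0.0330, which is past the threshold of 0.05. The same test called 0.772% of all genes, 0.436% higher and 0.336% lower, and the median size of the 87 rises was 1.41-fold.

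The Enah call depended on having all the arrays. Its difference stayed between 0.51 and 0.62 log2 when any 1 array was left out, but the adjusted p passed the threshold in 1 of those 8 fits, the one without control 3 (0.0431), and was 0.0529 to 0.120 in the other 7 (limma). Across all genes, the first principal component (43.3% of the variance) put jasplakinolide 4 (19.4) and control 2 (12.1) at its high end. Control 1 (-13.4) and control 3 (-14.3) were at its low end, with the other 4 arrays from -4.64 to 4.71. Jasplakinolide 4 and control 2 also had the highest array medians (7.39 and 7.38 log2). Without the 2 arrays at the high end the difference was 0.46 ± 0.09 log2 (SE; limma adjusted p = 0.0925, n = 3 each). Without the 2 at the low end, an alternative chosen after seeing the data, it was 0.63 ± 0.11 log2 (SE; limma adjusted p = 0.124, n = 4 and 2). Control 2 also carries the lowest control value of Enah, and jasplakinolide 4 shares the highest treated value, to the digits given, with jasplakinolide 3.

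The 4 treated values of Vasp all lay slightly above the 4 control values, but the gene did not pass the test. Its level was 9.74, 9.77, 9.74 and 9.74 log2 on jasplakinolide arrays 1 to 4, against 9.60, 9.64, 9.55 and 9.57 log2 on control arrays 1 to 4. The groups did not overlap, and the treated arrays were the tighter set, spanning 0.03 log2 against 0.09 in control. The means were 9.74 ± 0.01 log2 with jasplakinolide and 9.59 ± 0.04 in control (SD, n = 4 each), a difference of 0.16 ± 0.04 log2 (SE; 95% interval 0.06 to 0.25), or 1.11-fold, with a limma adjusted p of 0.168. Of all genes, 2.30% had a smaller p than Vasp. It passed when the test was limited to the brighter 50% of genes (adjusted p = 0.0418) or when arrays were weighted (0.0370), and in no fit with an array left out (limma adjusted p 0.136 to 0.453).

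Evl did not pass the test, and its mean was a little lower with jasplakinolide. Its level was 10.08, 10.05, 10.16 and 10.24 log2 on jasplakinolide arrays 1 to 4, against 10.15, 10.26, 10.22 and 10.27 log2 on control arrays 1 to 4. The groups overlapped: jasplakinolide 3 and 4 lay above control 1, and jasplakinolide 4 also above control 3. The means were 10.13 ± 0.08 log2 with jasplakinolide and 10.23 ± 0.06 in control (SD, n = 4 each), a difference of -0.09 ± 0.06 log2 (SE; 95% interval -0.22 to 0.03; limma adjusted p = 0.730).

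**Figure D1:**
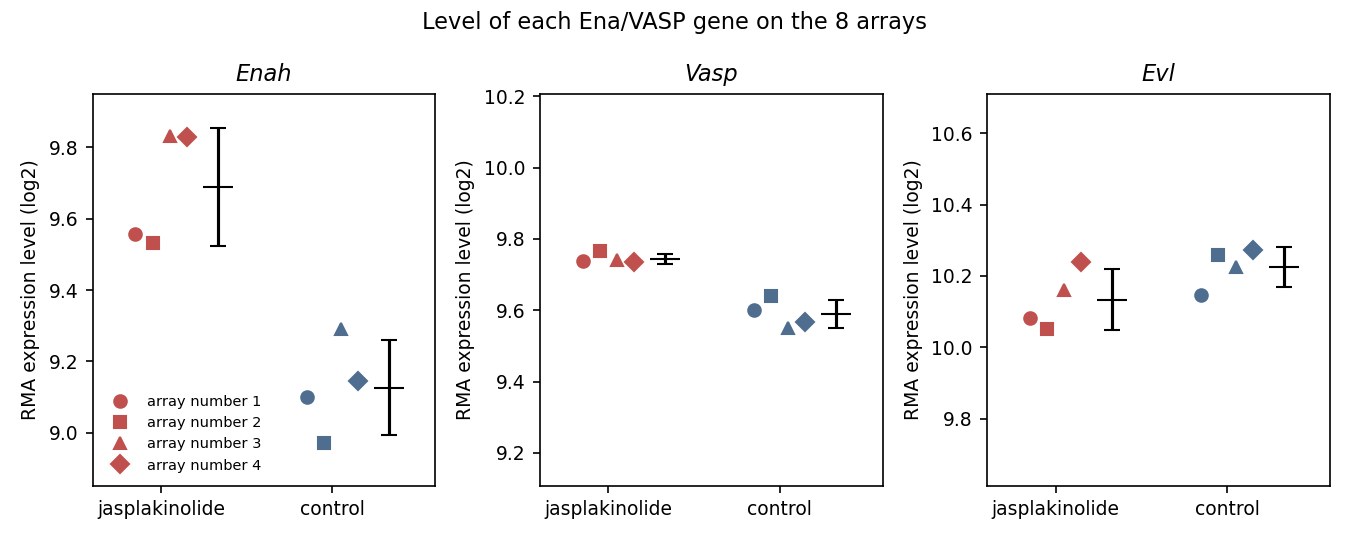
RMA expression levels (log2, vertical axis) of Enah, Vasp and Evl on the 4 jasplakinolide arrays and the 4 control arrays, with symbols for the array number and bars for the mean ± SD; the panels have different levels but the same vertical span. The Enah and Vasp groups do not overlap, with 0.24 and 0.09 log2 between them, while the Evl groups do.

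Thus 1 of the 3 genes rose, none fell and 2 did not pass. Groups that did not overlap were found for 2 of the 3, Enah and Vasp, against 6.91% of all genes. Arrays with the same number in both groups correlated in their deviations from the group means across genes (0.24 to 0.56), though jasplakinolide 4 did so more closely with control 2 (0.52) than with control 4 (0.44). Each treated array was therefore also set against the control array of its number, a pairing that the labels do not state. Enah was higher by 0.46, 0.56, 0.54 and 0.69 log2 in pairs 1 to 4, and Vasp by 0.14, 0.13, 0.19 and 0.17 log2. Evl differed by -0.06, -0.21, -0.06 and -0.03 log2, so it was lower on the treated array of every pair. With the replicate number as a block, the standard error of Enah went down to 0.05 log2 and its limma adjusted p was 0.0123, while Vasp (0.106) and Evl (0.391) still did not pass; that fit called 1.89% of all genes.

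The 3 genes shifted by different amounts on these arrays. The difference in log2 level between 2 of them on the same array cancels whatever scales that array as a whole, and its change between the groups was tested for the 3 pairs of genes by an exact two-sided permutation test over the 70 splits of the arrays. The log2 ratio of Enah to Evl was -0.52, -0.52, -0.33 and -0.41 on jasplakinolide arrays 1 to 4, against -1.05, -1.29, -0.93 and -1.13 on control arrays 1 to 4. It was thus higher by 0.65 ± 0.09 log2 with jasplakinolide (SE, n = 4 each), the widest shift of the 3 pairs. The log2 ratio of Enah to Vasp was higher by 0.41 ± 0.12 log2 and that of Vasp to Evl by 0.25 ± 0.06 log2 (SE, n = 4 each). In all 3 pairs of genes the groups did not overlap, and each exact permutation p was 0.0286, also after adjustment over the 3, which is the smallest this design can give. The 3 are not separate results, because on every array the log2 ratio of Enah to Evl is the sum of the other 2. Enah and Vasp each had groups that did not overlap on their own. The share of all gene pairs whose ratios do not overlap was not computed. The sizes of these ratios on any 1 array carry no meaning, since probe sets of different genes bind with different strength.

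With an array left out, 2 of 8 adjusted exact p-values stayed under 0.05 for Enah over Vasp, 7 for Enah over Evl and 5 for Vasp over Evl, and the others were 0.0571. The shifts lay between 0.34 and 0.47, 0.59 and 0.71, and 0.21 and 0.29 log2. Taken by array number, all 4 pairs moved up for each ratio; the paired exact sign-flip test cannot go below 0.125, the value it gave for each. Without control 2 and jasplakinolide 4 the shifts were 0.29, 0.58 and 0.29 log2, in the same order, with the smallest p that 3 against 3 allows (exact permutation p = 0.1). Without control 1 and control 3 they were 0.49, 0.76 and 0.27 log2, again with the smallest p allowed (exact permutation p = 0.0667).

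**Figure D2:**
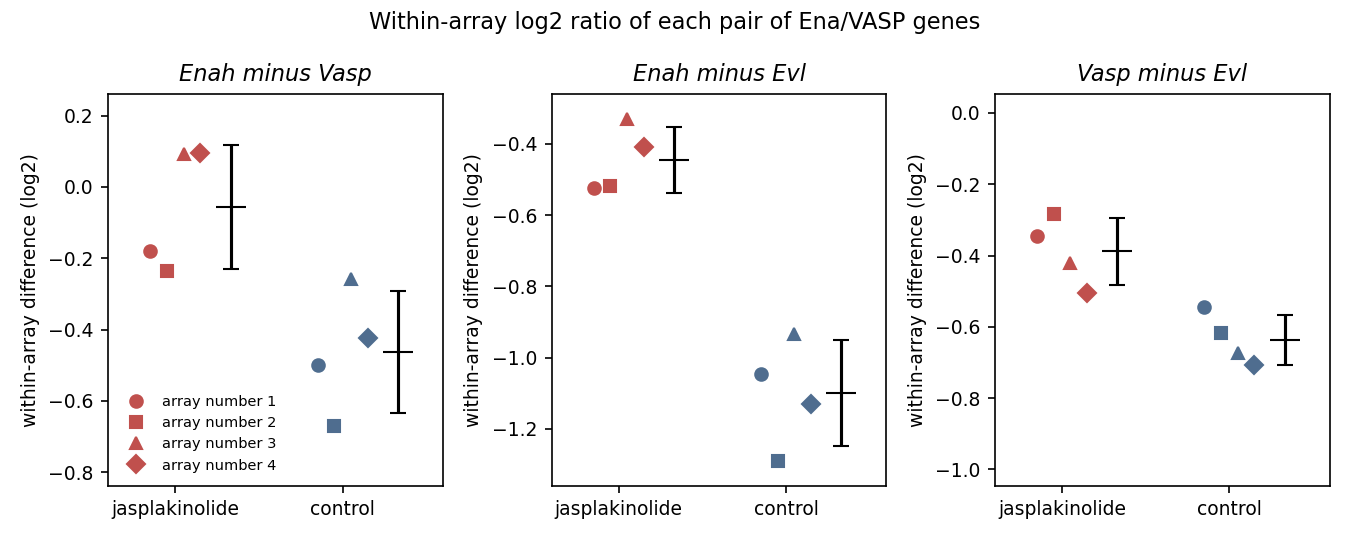
Within-array differences in log2 level (vertical axis) between Enah and Vasp, Enah and Evl, and Vasp and Evl on the 4 jasplakinolide and the 4 control arrays, with bars for the mean ± SD; all panels have the same vertical span. The jasplakinolide arrays sit above the control arrays in every panel, on average by 0.41, 0.65 and 0.25 log2.

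Among the proteins that dock Ena/VASP through the EVH1 domain, none of 9 measured genes passed the test in either direction, while 3 of the 9 had an unadjusted limma p under 0.05, as 8.87% of all genes did. Their median difference was -0.0025 log2, against 0.01 over all genes. Palld, which encodes palladin, an organiser of stress fibres, was at 11.19, 11.08, 11.19 and 11.05 log2 on jasplakinolide arrays 1 to 4, against 11.03, 10.96, 10.91 and 10.83 log2 on control arrays 1 to 4. It differed by 0.20 ± 0.06 log2 (SE; limma adjusted p = 0.233) and passed with array weights (0.0468). Lpp, a LIM-domain partner at adhesions, was at 12.67, 12.70, 12.79 and 12.85 log2 on jasplakinolide arrays 1 to 4, against 12.59, 12.59, 12.60 and 12.62 log2 on control arrays 1 to 4. The 4 treated arrays of Palld and of Lpp all lay above their controls, though neither gene passed (Lpp 0.15 ± 0.05 log2, SE; limma adjusted p = 0.324). Vcl (vinculin), named here after its values were seen, was the third gene of the 9 whose groups did not overlap, against 6.91% of all genes. It differed by 0.17 ± 0.05 log2 (SE; limma adjusted p = 0.240) and passed with an intensity trend and robust prior (0.0427).

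Zyx, which encodes zyxin, the adhesion protein through which Ena/VASP proteins reach focal adhesions and strained stress fibres, was at 11.65 ± 0.02 log2 with jasplakinolide and 11.66 ± 0.06 in control (SD, n = 4 each). Its difference of -0.0025 log2 had a 95% interval of -0.11 to 0.10 (limma adjusted p = 0.996). Raph1 encodes lamellipodin, which tethers Ena/VASP proteins at the leading edge, and differed by -0.05 ± 0.06 log2 (SE; limma adjusted p = 0.909). Sema6a, a transmembrane semaphorin that binds Evl, had the largest difference of the list, -0.32 ± 0.17 log2 (SE). It was at 8.02, 8.11, 8.54 and 8.46 log2 on jasplakinolide arrays 1 to 4, against 8.20, 8.46, 8.95 and 8.79 log2 on control arrays 1 to 4. The groups overlapped, but the treated array was the lower of each numbered pair. Sema6a did not pass (limma adjusted p = 0.682), except with the replicate block (0.0380), where it was the single gene of the 9 to be called.

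None of 14 measured profilin and barbed-end capping genes passed, in the main comparison or with the replicate block, and 1 had an unadjusted limma p under 0.05 (8.87% of all genes). Their median difference was 0.01 log2 and the range -0.17 to 0.08. Pfn1 encodes the main profilin, which delivers monomers to Ena/VASP, and was at 13.30 ± 0.03 log2 with jasplakinolide and 13.22 ± 0.03 in control (SD, n = 4 each; limma adjusted p = 0.648). Pfn2 differed by 0.03 ± 0.08 log2 (SE; limma adjusted p = 0.963). Capzb, the beta subunit of the capping protein that competes with Ena/VASP for filament ends, was at 12.22 ± 0.01 log2 with jasplakinolide and 12.16 ± 0.03 in control (SD, n = 4 each; limma adjusted p = 0.787). Carmil3, of the family of capping protein inhibitors, differed by 0.08 ± 0.08 log2 (SE). Twf2 encodes a twinfilin, which binds monomers and capping protein, and had the largest difference, -0.17 ± 0.05 log2 (SE; limma adjusted p = 0.249). Its values were 9.32, 9.29, 9.26 and 9.18 log2 on jasplakinolide arrays 1 to 4, against 9.48, 9.39, 9.52 and 9.37 log2 on control arrays 1 to 4, and the groups did not overlap. They did not overlap either for Pfn1, Capzb and Mtpn, an inhibitor of capping protein named after its values were seen, in which the treated arrays were higher, so that 4 of the 14 had groups that did not overlap, against 6.91% of all genes.

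Over all genes, 0.772% passed and 8.87% had an unadjusted limma p under 0.05. Of 10 measured kinases and ubiquitin ligases known to act on Ena/VASP proteins, none passed and none had such a p. Their differences ran from -0.17 for Prkaa2, a catalytic subunit of AMP-activated kinase, to 0.09 log2, with a median of 0.0040. Prkg2, a cGMP-dependent kinase, differed by -0.10 ± 0.13 log2 (SE). Prkaca was not analysed here. None of 8 other EVH1-domain genes passed either, and 1 of the 8 had an unadjusted limma p under 0.05, near the 8.87% of all genes. The largest differences were those of Homer1, a scaffold of calcium signalling, at 0.16 ± 0.06 log2 (SE; limma adjusted p = 0.455), and Was, the Wiskott-Aldrich syndrome protein of blood cells, at 0.12 ± 0.10 log2 (SE). Among 11 measured genes of lamellipodia and filopodia none passed and none had an unadjusted limma p under 0.05, against 0.772% and 8.87% of all genes. Wasf3 and Wasf1, of the WAVE family that activates the Arp2/3 complex, had the largest differences, 0.10 ± 0.12 and 0.09 ± 0.05 log2 (SE). Cyfip1 was not analysed here.

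**Figure D3:**
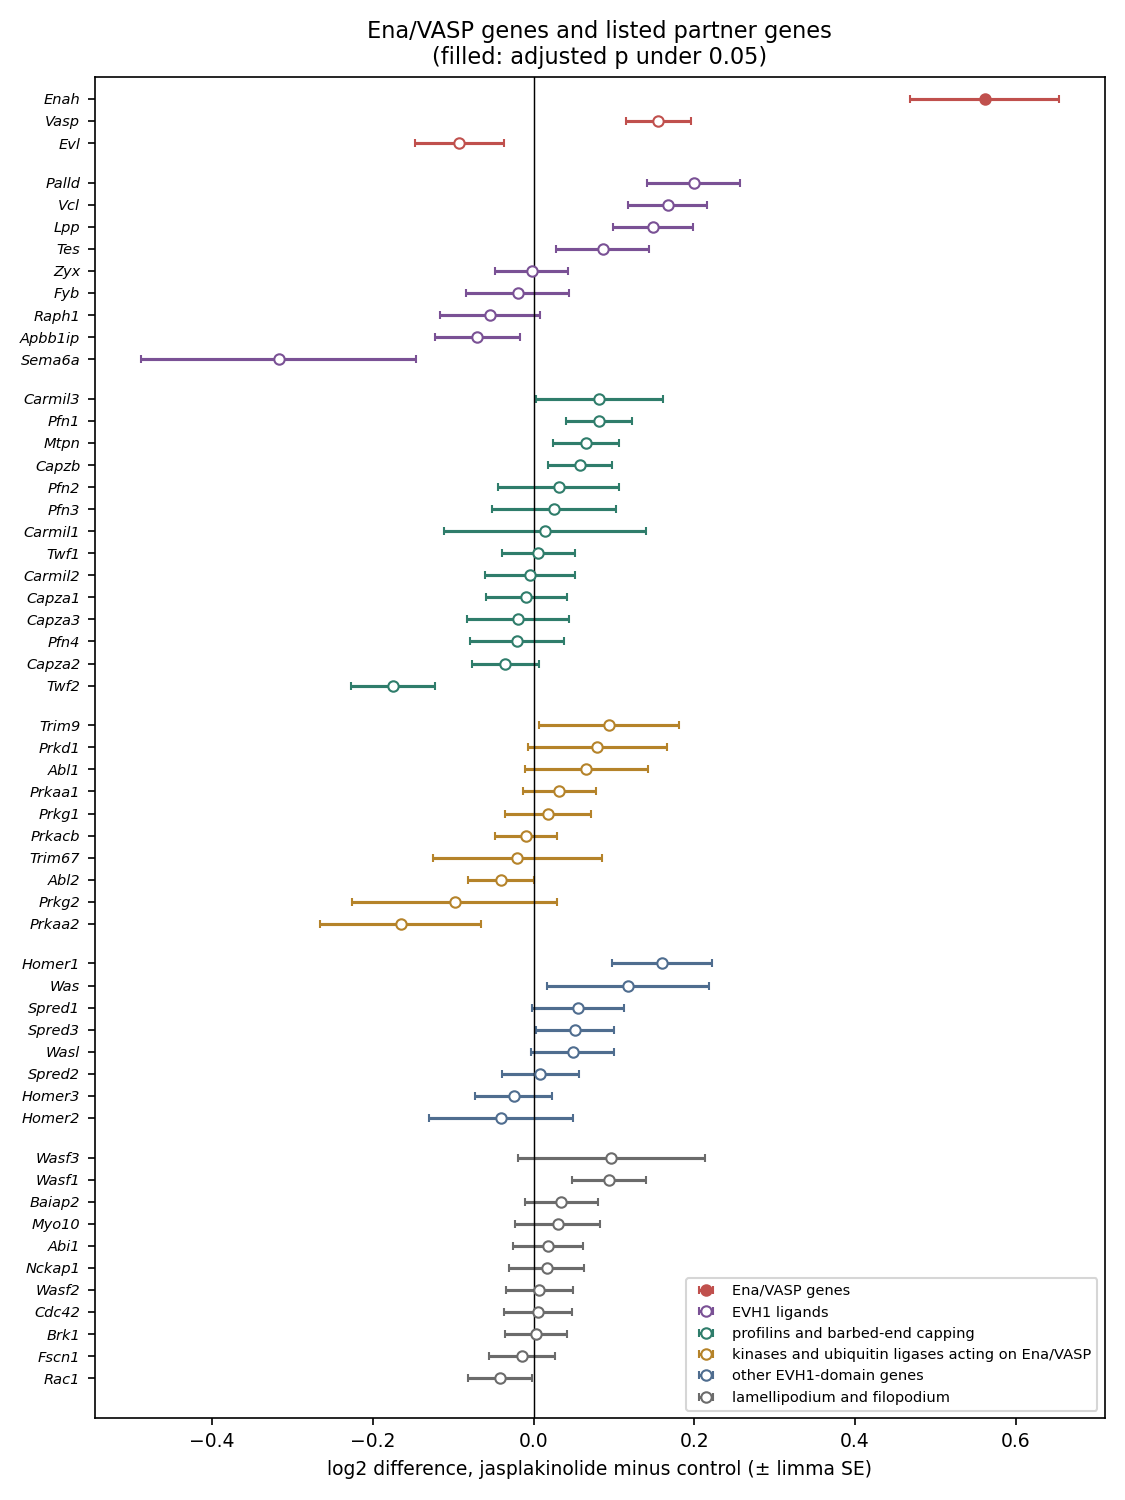
Log2 difference, jasplakinolide minus control (horizontal axis, ± limma SE), of the 3 Ena/VASP genes and of the measured members of 5 lists of partner genes (rows, coloured by list), with filled points for an adjusted p under 0.05. Enah, at 0.56 log2, is the single filled point, and the listed partner genes lie between -0.32 and 0.20 log2.

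The label of the cells was checked against markers. Of 8 smooth muscle markers 7 rose (limma, adjusted p under 0.05), against 0.436% of all genes. They were led by Kcnmb1, a potassium channel subunit, which was at 10.27 ± 0.29 log2 with jasplakinolide and 8.27 ± 0.12 in control (SD, n = 4 each). Cnn1, calponin, rose by 1.34 ± 0.07 log2 (SE). The others were Actg2 (0.93 ± 0.10), Myh11 (0.81 ± 0.08), Lmod1 (0.68 ± 0.07), Tagln (0.55 ± 0.04) and Acta2 (0.25 ± 0.04), which encode contractile or filament-binding proteins. The summed smooth muscle level was 15.06 to 15.19 log2 with jasplakinolide and 14.54 to 14.57 in control. Endothelial markers were also bright, with 5 of 10 in the brightest 10% of genes. Their summed level was 14.85 to 14.96 log2 with jasplakinolide and 15.00 to 15.05 in control. Emcn, Cdh5 and Pecam1, named after their values were seen, were at 13.41, 13.17 and 12.48 log2 in control and did not pass. The groups of Cdh5 and Pecam1 did not overlap, with the treated arrays lower, while those of Emcn did. Over all genes, 6.91% had groups that did not overlap, in either direction. Of the 10 endothelial markers, 5 had an unadjusted limma p under 0.05, against 8.87% of all genes, and only 1 had a difference above 0. In control the endothelial sum lay above the smooth muscle sum, though sums over different genes are not on one scale. The markers thus do not show smooth muscle alone, and the share of each cell type was not tested. Of the 10 endothelial markers, Robo4, an endothelial guidance receptor, was the 1 that fell (-0.41 ± 0.06 log2, SE; limma adjusted p = 0.0170), against 0.336% of all genes. With the replicate block, a fit that called 1.89% of all genes, 3 of the 10 fell. They were Robo4 (limma adjusted p = 0.0205) and, named after their values were seen, Tek (0.0354) and Kdr (0.0424), both receptors of endothelial growth factors. Tek was also called lower after cyclic loess (0.0401), after a second quantile normalization (0.0452) and with array weights (0.0227). Pecam1 was called lower with an intensity trend and robust prior (0.0456).

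Evl is known from blood and endothelial cells, so the other cell types are given beside it. The summed level of 8 leukocyte and macrophage markers was 11.48 to 11.57 log2 with jasplakinolide and 11.39 to 11.52 in control, and none of the 8 passed; Cd68 differed by -0.24 ± 0.07 and Lyz2 by 0.17 ± 0.05 log2 (SE), and Cd68 was called lower with the replicate block (limma adjusted p = 0.0424). That of 4 platelet markers, none of which passed, was 9.64 to 9.71 log2 with jasplakinolide and 9.54 to 9.73 in control; Pf4 differed by 0.18 ± 0.09 and Itga2b by 0.08 ± 0.07 log2 (SE). That of 6 fibroblast markers, again with none past the test, was 12.30 to 12.65 log2 with jasplakinolide and 12.66 to 13.15 in control; Dcn differed by -0.54 ± 0.12 and Dpt by -0.46 ± 0.11 log2 (SE). Dcn was called lower with the replicate block (limma adjusted p = 0.0134), among the brighter 50% of genes (0.0470), with array weights (0.0126) and when the prior was robust and followed intensity (0.0453). No value on these arrays was as low as 0, so the scale cannot show whether a marker was absent. Dpt was dim, at 5.09 log2 with jasplakinolide and 5.55 in control, with only 10.2% of all genes dimmer. Lum and Cd79a, named after their values were seen, were also dim (5.73% and 9.15% of all genes dimmer). The summed smooth muscle level was thus higher on every treated array, like the levels of Enah and Vasp, and the endothelial and fibroblast sums were lower on every treated array. The fibroblast sum follows mainly Dcn (12.25 log2 with jasplakinolide, 12.79 in control), as the next brightest marker, Col15a1, was at 8.25 and 8.39 log2. Pdgfra, Lum and Pi16 differed by only -0.03, -0.06 and 0.06 log2, so the fibroblast list as a whole is not shown to be lower. Their part in the results on Enah, Vasp and Evl was not tested. In these bulk samples, fewer cells of a type and less RNA per cell cannot be told apart.

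The genes whose levels followed each Ena/VASP gene most closely over the 8 arrays were found by Pearson's r. They were picked as the highest of all genes apart from predicted and clone-named ones, the arrays share the treatment difference, and no p is given. Enah was followed by Ncam1, a cell adhesion molecule (r = 0.993, Spearman's rho 0.976), Fhl3, a LIM-domain protein of muscle (r = 0.991, rho 0.976), and Mrpl52, a mitochondrial ribosomal protein (r = 0.989, rho 0.976). Ncam1 rose by 0.40 ± 0.07 log2 (SE; limma adjusted p = 0.0408) and Fhl3 by 0.33 ± 0.05 (0.0330), whereas Mrpl52 differed by 0.10 ± 0.04 (0.442). Vasp was followed by Tln1, the integrin-activating adhesion protein talin (r = 0.980, rho 0.952), Tmem45a2 (r = 0.978, rho 0.952) and Igfbp2, a binding protein of insulin-like growth factors (r = 0.976, rho 0.905). Tln1 differed by 0.17 ± 0.04 log2 and did not pass (SE; limma adjusted p = 0.146), while Igfbp2 rose by 0.63 ± 0.10 (0.0312) and Tmem45a2 by 0.40 ± 0.05 (0.00883). Tmem45a2 was dim, at 4.52 log2 with jasplakinolide and 4.12 in control. The nearest genes to Evl were looser matches: Tbx22, a T-box factor (r = 0.959, rho 0.952), Gdf11, a growth factor of the TGF-beta family (r = 0.957, rho 0.857), and Dkk3, a secreted protein of the Dickkopf family (r = 0.949, rho 0.857), none of which passed. Tbx22 was dim as well, at 5.54 log2 with jasplakinolide and 5.68 in control. An r above 0.9 was reached by 247 genes for Enah, 114 for Vasp and 13 for Evl, again leaving out predicted and clone-named genes. Between Enah and Vasp r was 0.766, between Enah and Evl -0.350, and between Vasp and Evl -0.617, over the same 8 arrays. These values include the treatment difference and do not describe how the genes vary inside a group. In both groups the array lowest in Enah was the highest in Vasp. These were control 2 (8.97 and 9.64 log2) and jasplakinolide 2 (9.53 and 9.77 log2). Jasplakinolide 2 was also the lowest treated array in Evl (10.05 log2), whereas control 2 (10.26 log2) was not the lowest control.

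**Figure D4:**
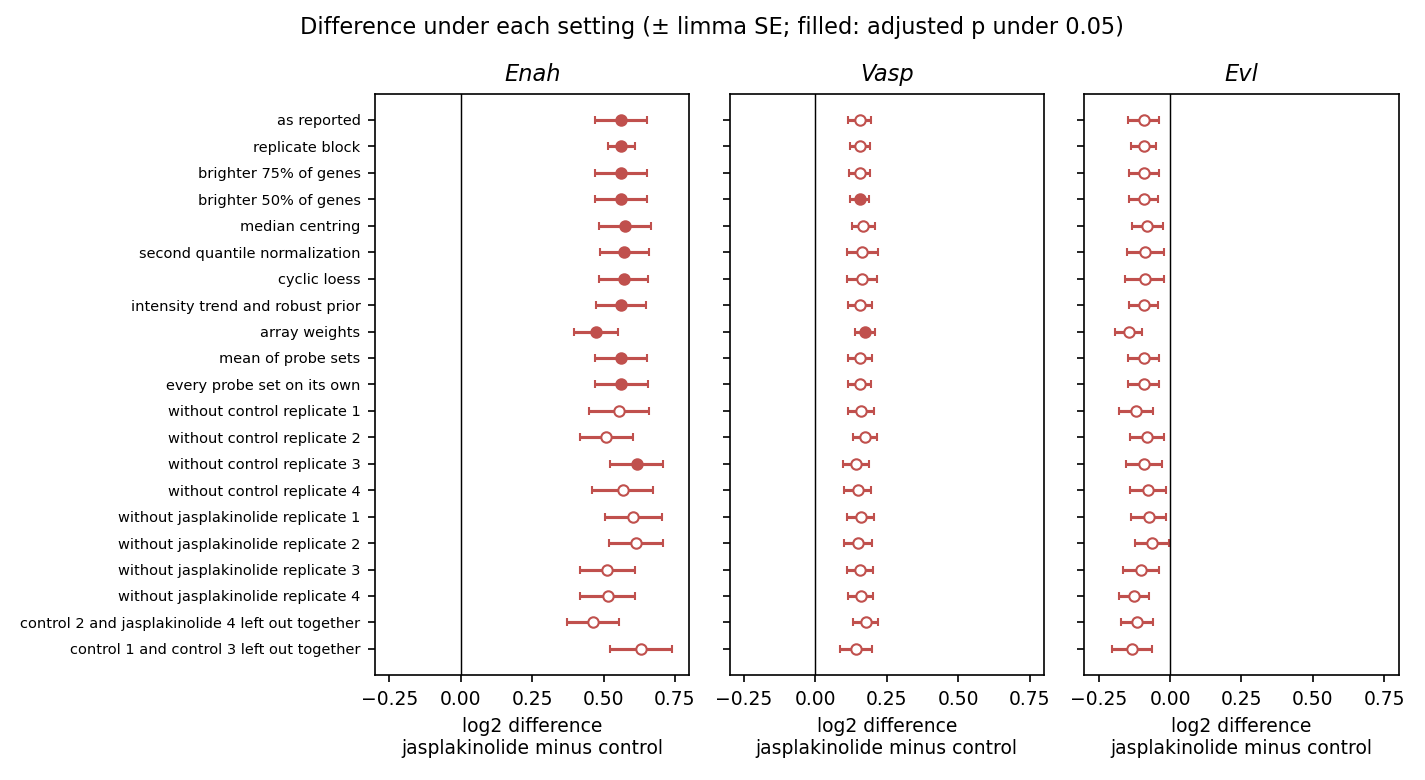
Log2 difference, jasplakinolide minus control (horizontal axis, ± limma SE), of Enah, Vasp and Evl under each way of processing (rows), with filled points for an adjusted p under 0.05. Enah lies between 0.46 and 0.63 log2, Vasp between 0.14 and 0.18 and Evl between -0.14 and -0.06 in all rows, and the open Enah points are all fits with 1 or 2 arrays left out.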

How the data were processed

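The deposited log2 values of 35556 probe sets are RMA levels that the authors made in Affymetrix Expression Console, according to the submitters' processing notes. Program versions and a genome build were not given in the sources used here, and detection calls were not used. RMA corrects background, quantile-normalizes and summarises probes, which is meant to reduce shifts common to a whole array. The medians of the arrays still ran from 7.30 (control 3) to 7.39 log2 (jasplakinolide 4). The 21789 probe sets with 1 symbol in the platform annotation were used (1621 had several, 12146 none), and of 999 genes with several probe sets the brightest set was kept.

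All 19938 genes were fitted together in limma 3.58.1 under R 4.3.3 (lmFit, eBayes, two-sided; 6 residual and 3.43 prior degrees of freedom), with Benjamini-Hochberg adjustment and a threshold of 0.05. Errors of differences are limma's standard errors, or for ratios those of the 2 group means. Having 4 arrays per group limits the precision. The fit was tested on simulated data, where it recovered 22.4% of changes of 0.25 log2, 92.1% of 0.5 log2 and 99.1% of 1 log2. Of its calls there, 4.8% were false. A gene that did not pass may therefore still differ by a small amount. The arrays here deviated together across genes, unlike the simulated ones, so the simulated rates may not hold for these data. Members and lists were chosen with earlier results of these data known. The text names by rule Enah, Vasp, Evl, Zyx, Lpp, Palld, Raph1, Pfn1, Pfn2 and Capzb, the called members of each list or else its 2 largest differences, and the 3 genes most like each Ena/VASP gene (predicted genes left out). Same-numbered arrays deviated together (correlations of 0.24 to 0.56 in all 4 pairs), so same-numbered arrays were treated as pairs, which the labels do not state. Arrays with other numbers correlated at -0.62 to 0.52; the highest, jasplakinolide 4 with control 2, exceeded 3 of the 4 same-numbered values. Alternatives were the replicate block, filters on dim genes, other scalings, variance models, array weights, other handling of probe sets and leaving out arrays. Promoter windows are from RefSeq (GRCm38.p6) and matched by symbol for all 3 genes. Plots used matplotlib 3.10.9 and Python 3.11.15.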

Additional observations from a re-analysis of the deposited data

Results flagged for a closer look

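Over the genes named here and the 3 ratios, 92 groups of 4 arrays were looked at for an array far from the other 3, and 4 had one, where chance alone gives about 1 in 20. Capzb on jasplakinolide 3 was at 12.24 log2, against 12.21 to 12.22 on the other treated arrays, a gap of 0.899 of the group's range. Prkaa2 on control 1 was at 9.03 log2, against 8.74 to 8.77 on the other controls (0.910 of the range), and Gdf11 on control 1 at 8.90 log2, against 9.01 to 9.02 (0.931). Lmod1 on control 4 was at 8.15 log2, against 8.23 to 8.24 on the other controls (0.986). None of the groups of Enah, Vasp, Evl or their ratios had such an array.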

How the results depend on the processing

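Enah, Vasp and Evl kept their direction in all 20 alternatives each, and the 3 ratios in all 12. Enah kept its call in all 10 alternatives that used every array, and lost it without control 2 and jasplakinolide 4 (0.46 log2) and, chosen after seeing the data, without control 1 and control 3 (0.63 log2). With any 1 array left out it was 0.51 to 0.62 log2, and without control 3 alone it kept its call; in the 7 fits that lost the call it was 0.51 to 0.61. Vasp passed among the brighter 50% of genes (0.16 log2), a filter that tests fewer genes, and with array weights (0.17 log2). Evl passed in none. With the replicate block, taken from same-numbered pairs, the ratio shifts were 0.41 (Enah over Vasp), 0.65 (Enah over Evl) and 0.25 log2 (Vasp over Evl), where the paired exact test cannot go below 0.125. Without control 2 and jasplakinolide 4 they were 0.29, 0.58 and 0.29 log2, where the exact test cannot go below 0.1, and without control 1 and control 3 0.49, 0.76 and 0.27 log2 (not below 0.0667). With 1 array left out they were 0.34 to 0.47, 0.59 to 0.71 and 0.21 to 0.29 log2. Among the EVH1 ligands 1 gene was called with the replicate block (Sema6a, lower), 1 with an intensity trend and robust prior (Vcl, higher) and 1 with array weights (Palld, higher), and no gene of the other 4 partner lists was called under any alternative. The count over all genes, 154 (87 higher and 67 lower), was 457 with array weights, 377 with the replicate block, 358 when the prior was robust and followed intensity, 297 (129 higher, 168 lower) after cyclic loess, 296 (129 higher, 167 lower) after a repeated quantile normalization, and 296 among the brighter 50%. With 1 array left out it was 150 (control 2), 78 (control 1), 71 (jasplakinolide 4), 59 (jasplakinolide 3), 55 (control 3 or jasplakinolide 1), 52 (jasplakinolide 2) and 43 (control 4), and it was 39 without control 1 and control 3. The causes were not tested.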
